A study of Mus musculus with 18 samples.

Results

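Globin and erythroid genes were followed across 18 mRNA-seq libraries of mouse B lineage cells. Their 9 genes were the α-globins Hba-a1 and Hba-a2, the β-globins Hbb-bs, Hbb-bt and Hbb-b1, the haem synthesis enzyme gene Alas2, the carbonic anhydrase genes Car1 and Car2, and Slc4a1, which encodes the red cell anion exchanger band 3. The genes were taken by symbol from a table of 21761 genes. They were chosen from measured values, since Hba-a2 and Hbb-bs were known to be higher in Dnmt3-deficient naive B cells in these same libraries. Of the 9 genes, 7 had a row in the table and 6 passed the filter of more than 1 FPKM in at least 2 libraries. Slc4a1 had a row and did not pass, and the levels of Hba-a1 and Hbb-bt, which had no row, were not analysed here. FPKM is a read count scaled by the exon length of the gene and the size of the library, and is the unit of every level given here.

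The libraries came from 3 cell types and 2 genotypes, with 3 libraries in each of the 6 groups. Naive B cells (nB; B220+ GL7- Fas-) and germinal center B cells specific for phycoerythrin (GCB; B220+ GL7+ Fas+ PE+) were sorted from lymph nodes, and bone marrow plasma cells (BMPC) were sorted as CD138+ cells. GCB and BMPC came from mice given phycoerythrin in complete Freund's adjuvant 30 days earlier, and nB came from unimmunized mice. Dnmt3-sufficient mice were Dnmt3afl/fl Dnmt3bfl/fl without Cre, and Dnmt3-deficient mice were Dnmt3afl/fl Dnmt3bfl/fl with 1 copy of a Cre allele. Both genotypes therefore carried the floxed alleles of the de novo DNA methyltransferase genes on a mixed B6;129S4 background, and differed by a Cre recombinase that is active in the B lineage. The mice were 8 to 12 weeks old and of both sexes, each library was made from 5000 sorted cells, and each GCB library pooled mice. Red blood cells were lysed in the bone marrow suspensions, and whether they were lysed in lymph node suspensions is not given in the sources used here.

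Library totals recovered from the FPKM were 6692516 to 8987922 reads per nB library, 7644544 to 8903872 per GCB library and 1355231 to 3803197 per BMPC library. The BMPC libraries were thus the shallowest, and 2991 to 4615 of the 11522 genes that passed the filter had no read in a given BMPC library, against 680 to 1252 in a given nB or GCB library. The labels fitted the B lineage markers. Summed over 6 markers of each type, the GCB genes reached 1037 to 1143 FPKM in GCB and at most 83.5 elsewhere, and the plasma cell genes (Jchain among them) reached 17008 to 48114 FPKM in BMPC and at most 917 elsewhere. Mean Dnmt3a was 3.67 FPKM in Dnmt3-sufficient nB and 3.48 in Dnmt3-deficient nB, and at most 1.23 in the other groups, and mean Dnmt3b was between 0.326 and 3.97 FPKM over the 6 groups. These gene totals also count exons outside the floxed ones, so they do not check the genotype.

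Adult haemoglobin is built from α-globin and β-globin chains around haem. Red cell precursors switch on the transcription factor genes Gata1 and Klf1 and the erythropoietin receptor early, make the membrane and blood group proteins, and then fill with globin mRNA as they mature, while ALAS2 starts haem synthesis. Carbonic anhydrases 1 and 2 convert carbon dioxide in red cells, and Car1 (chr3:14766217-14778459) and Car2 (chr3:14886426-14900769, both mm9) lie close together. Globin mRNA is very abundant in red cell precursors. In bulk libraries, fewer cells of a type and less RNA per cell cannot be told apart.

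The adult globin genes are near copies of each other, which limits what a row of the table can count. The GENCODE vM1 annotation of mm9 places Hba-a1 at chr11:32183511-32184465 and Hba-a2 at chr11:32196489-32197301, both on the plus strand, and Hbb-b1 at chr7:110975048-110976610, Hbb-b2 at chr7:110961038-110962510 and the embryonic β-like globin Hbb-bh1 at chr7:110990150-110991678, all on the minus strand. The coding sequences of Hba-a1 and Hba-a2 differed at 1 of 429 bases and shared 331 of 380 windows of 50 bases (87.1%), the length of a read. Those of Hbb-b1 and Hbb-b2 differed at 1 of 444 bases and shared 367 of 395 such windows (92.9%). Hbb-bh1 differed from Hbb-b1 at 115 of 444 bases and shared 0 of 395 windows. The stretches below show this over 90 spliced coding bases (328 to 417 of the β-like genes and 292 to 381 of the α-globins, counted from the start codon), with capitals where a base differs from Hbb-b1 or, for the α-globins, from Hba-a1:
Hbb-b1: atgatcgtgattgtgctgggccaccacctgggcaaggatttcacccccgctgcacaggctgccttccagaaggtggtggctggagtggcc
Hbb-b2: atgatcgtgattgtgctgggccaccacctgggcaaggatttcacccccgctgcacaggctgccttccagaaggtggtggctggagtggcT
Hbb-bh1: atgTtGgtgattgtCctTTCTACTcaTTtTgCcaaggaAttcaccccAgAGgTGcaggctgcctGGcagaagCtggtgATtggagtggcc
Hba-a1: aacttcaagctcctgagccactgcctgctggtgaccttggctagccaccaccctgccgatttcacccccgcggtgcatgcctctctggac
Hba-a2: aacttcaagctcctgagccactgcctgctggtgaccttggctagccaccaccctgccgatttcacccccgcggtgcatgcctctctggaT
Hbb-bs and Hbb-b1 are both rows of the table, while GENCODE vM1 names the adult β loci Hbb-b1 and Hbb-b2 and RefSeq GRCm38.p6 names them Hbb-bs and Hbb-bt, so which adult β locus each row counted is uncertain. The row Hba-a2 had an exon length of 1132 bases in the table, against 670 bases in GENCODE vM1, so that it may hold reads of another α locus. A read that matched several places was placed at 1 of them. The summed α-globin or β-globin level is therefore firmer than the share of any 1 copy. The coding reads of Hbb-bh1 can be told from those of the adult β-globins, but its row too had a longer exon length in the table (960 bases) than in GENCODE vM1 (614), and what the rest of it counts was not examined.

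The 220 bases before the start of Hba-a2, Hbb-bs and Alas2 are given because these genes share the erythroid factors GATA1 and KLF1 as known regulators. They are from RefSeq GRCm38.p6 at chr11:32296272-32296491 (plus strand), chr7:103827929-103828148 (minus strand) and chrX:150547197-150547416 (plus strand), and capitals mark a GATA motif (GATA after A or T and before A or G) or a CACCC motif (CACCC after CC and 1 base other than T) on either strand:
Hba-a2: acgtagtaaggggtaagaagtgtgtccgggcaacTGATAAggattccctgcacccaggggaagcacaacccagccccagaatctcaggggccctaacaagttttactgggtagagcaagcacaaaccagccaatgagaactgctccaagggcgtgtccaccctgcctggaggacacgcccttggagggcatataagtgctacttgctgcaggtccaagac
Hbb-bs: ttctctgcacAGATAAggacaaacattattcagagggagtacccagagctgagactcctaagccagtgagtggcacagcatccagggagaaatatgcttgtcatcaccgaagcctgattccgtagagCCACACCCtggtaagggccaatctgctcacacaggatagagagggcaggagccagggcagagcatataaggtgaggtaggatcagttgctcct
Alas2: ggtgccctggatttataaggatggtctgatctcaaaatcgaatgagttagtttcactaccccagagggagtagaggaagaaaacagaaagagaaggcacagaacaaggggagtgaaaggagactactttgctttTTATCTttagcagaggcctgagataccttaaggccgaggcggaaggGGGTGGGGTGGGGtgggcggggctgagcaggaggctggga
Each of these windows held 1 GATA motif, against 23.5% of the 32851 RefSeq promoter windows of the same length. Hbb-bt, whose window also was searched, held neither motif, and the window of Gata1 held no GATA motif. Hbb-bs held 1 CACCC motif and Alas2 held 2 that overlap on the opposite strand, against 12.1% of those windows. Such a match of letters is a description and shows no binding.

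The globin genes were read in all 3 cell types, but in different proportions. In nB they were at background in the 3 Dnmt3-sufficient libraries and higher in all 3 Dnmt3-deficient ones, in GCB they were few and, except in Dnmt3-sufficient replicate 3, of the β type, and in BMPC they were abundant in every library together with Car1 and Car2. Reads of the 3 adult globin rows were 3.34e-05% to 0.000131% of the library in Dnmt3-sufficient nB and 0.00227% to 0.0233% in Dnmt3-deficient nB, whereas this share was 2.25e-05% to 0.00301% for GCB libraries and 0.0102% to 0.224% for BMPC libraries.

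**Figure D1:**
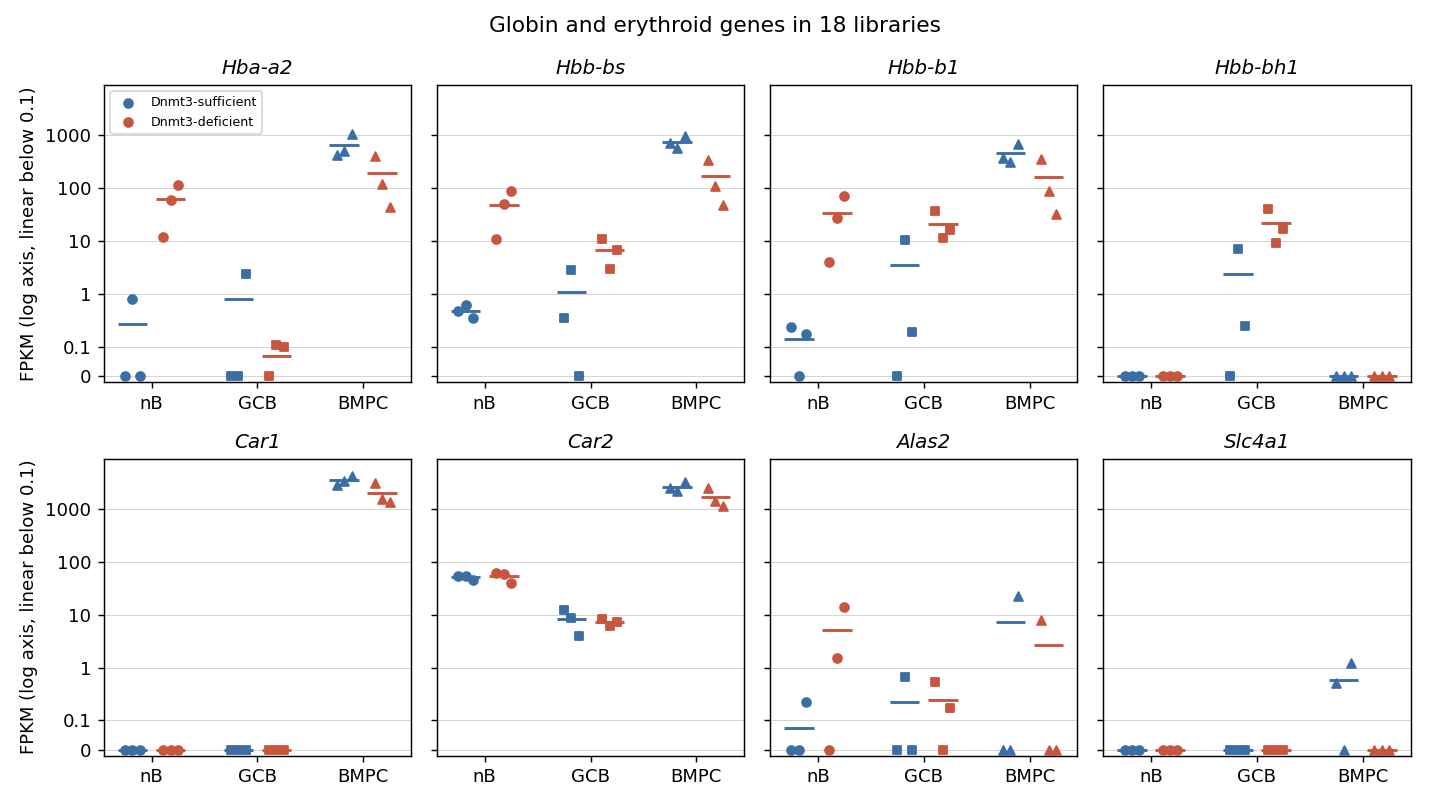
FPKM of the 7 genes with a row, and of Hbb-bh1, in each of 18 libraries (log axis, linear below 0.1 FPKM), by cell type and genotype; points are libraries and lines are means of 3. Car1 is at 0 in all nB and GCB libraries and at 1342 to 4308 FPKM in BMPC, while Hbb-bh1 is above 0 only in GCB.

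In nB, Hba-a2 was at 0, 0.81 and 0 FPKM in Dnmt3-sufficient replicates 1 to 3 and at 11.7, 59.6 and 117 in Dnmt3-deficient replicates 1 to 3. Hbb-bs was at 0.47, 0.61 and 0.35 FPKM in the sufficient libraries and at 10.8, 49.96 and 86.6 in the deficient ones. Hbb-b1 was at 0.24, 0 and 0.18 FPKM in the sufficient libraries and at 3.97, 27.4 and 71.8 in the deficient ones. For all 3 genes every deficient library was above every sufficient one, and the deficient libraries differed widely, with means of 62.9 ± 52.9 (SD, n = 3) for Hba-a2, 49.1 ± 37.9 for Hbb-bs and 34.4 ± 34.5 for Hbb-b1. This contrast chose the genes, so it is a description with no test, and 4.66% of the 11522 genes that passed the filter also had all 3 deficient nB libraries above all 3 sufficient ones. On the log2(FPKM + 1) scale the group means differed by 5.21 for Hba-a2, 4.67 for Hbb-bs and 4.26 for Hbb-b1. The sufficient libraries held at most 7 reads of Hba-a2, 3 of Hbb-bs and 1 of Hbb-b1, so that against a floor of 3 reads per library the deficient mean was at least 80.2-fold higher for Hbb-bs and at least 55.4-fold higher for Hbb-b1.

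Alas2, the erythroid form of the enzyme that starts haem synthesis, was at 0, 1.51 and 14.1 FPKM in Dnmt3-deficient nB replicates 1 to 3 and at 0, 0 and 0.22 in the sufficient ones, so the library with the most globin also had the most Alas2. Car1 was at 0 reads in all 6 nB libraries, and Gata1, Klf1 and Epor were at 0 as well. Car2 was between 45.8 and 54.9 FPKM in sufficient nB and between 39.2 and 61.9 in deficient nB, with overlapping groups. The 9 neutrophil genes summed to 0 FPKM in all nB libraries, and the platelet and megakaryocyte genes, of which Pf4, Ppbp and Gp9 were at 0, summed to at most 1.38 FPKM. T and NK cell genes summed to 61.9 to 132 FPKM in sufficient and 105 to 153 in deficient nB, and macrophage genes to 8.76 to 9.77 and 6.55 to 13.9. Both sums were highest in deficient replicate 3, the library with the most globin. Macrophage genes summed to 6.55 and 7.13 FPKM in deficient replicates 1 and 2, below every sufficient library. T and NK cell genes summed to 105, 122 and 153 FPKM in deficient replicates 1 to 3, and to 132 in sufficient replicate 3. The part of other cells in the globin reads was not tested.

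In GCB the globin reads were mostly of the β type, with 1 exception. Hba-a2 was at 0, 0 and 2.40 FPKM in Dnmt3-sufficient replicates 1 to 3 and at 0, 0.11 and 0.10 in Dnmt3-deficient ones, where no library held more than 1 read. Sufficient replicate 3 was thus the library with more α-globin than β-globin. Hbb-bs was at 0.35, 2.87 and 0 FPKM in the sufficient libraries and at 11.1, 2.90 and 6.74 in the deficient ones. Hbb-b1 was higher than Hbb-bs in each deficient library, with 36.6, 11.2 and 16.0 FPKM, and was at 0, 10.6 and 0.19 in the sufficient ones. The ratio of Hbb-bs to Hbb-b1 was 0.259 to 0.421 in the 4 GCB libraries with more than 10 reads of both, below its range of 1.21 to 2.71 in deficient nB and of 0.951 to 1.95 in BMPC.

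Hbb-bh1, a β-like globin that mice make in the embryo, was read in GCB alone. It was at 0, 6.95 and 0.25 FPKM in Dnmt3-sufficient GCB replicates 1 to 3 and at 39.98, 9.28 and 16.5 in Dnmt3-deficient ones, and at 0 reads in all nB and BMPC libraries. It followed Hbb-b1 from library to library, with a ratio to Hbb-b1 of 0.656 to 1.09 in the same 4 libraries. Over the 6 GCB libraries the 2 genes had a Pearson r of 0.993 and a Spearman rho of 1 on the log2(FPKM + 1) scale, and r was 0.985 without the 2 libraries farthest from the median of Hbb-b1. These libraries share their preparation and the genes lie in 1 cluster, so the value is a description. From GCB to BMPC Hbb-bh1 fell by 2.69 ± 0.43 (SE) on the log2(FPKM + 1) scale (limma, Benjamini-Hochberg adjusted p = 8.27e-05). It passed the filter only through GCB and had no read in BMPC, so the direction of this call was fixed. The change was -1.10 ± 0.61 in Dnmt3-sufficient mice, which was not called (adjusted p = 0.187), and -4.28 ± 0.61 in Dnmt3-deficient mice (5.65e-05). The difference between these changes was -3.18 ± 0.86 and was not called by limma (adjusted p = 0.162). Hbb-bh2, Hbb-y and Hba-x, relatives of Hbb-bh1, were at 0 in all 18 libraries.

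**Figure D2:**
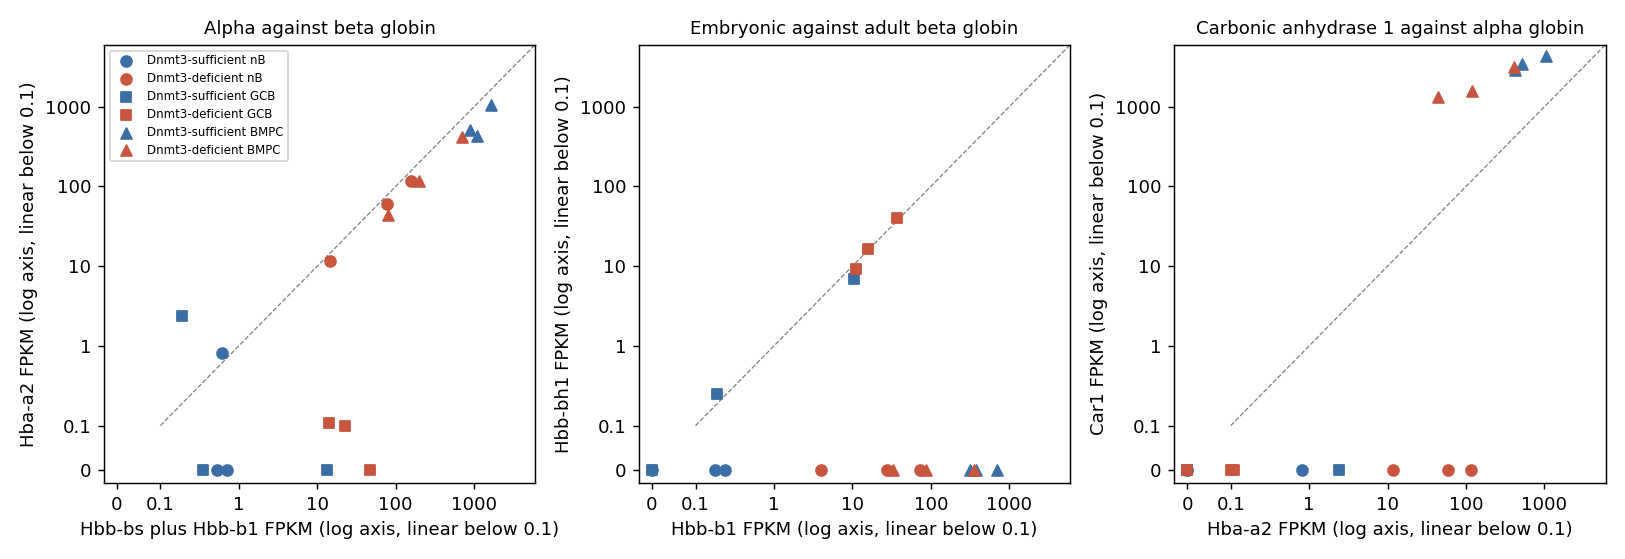
FPKM of gene pairs in each of 18 libraries (log axes, linear below 0.1 FPKM), with a dashed line of equality. Hba-a2 lies near the line against the summed β-globins in Dnmt3-deficient nB and in BMPC and at most 0.109 FPKM in GCB except in Dnmt3-sufficient replicate 3 (2.40 FPKM), Hbb-bh1 lies near the line against Hbb-b1 in GCB only, and Car1 is above Hba-a2 in every BMPC library and at 0 in all others.

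The ratio of Hba-a2 to the summed β-globins Hbb-bs and Hbb-b1 was 0.740 to 0.795 in the 3 Dnmt3-deficient nB libraries, 0.384 to 0.632 in Dnmt3-sufficient BMPC and 0.552 to 0.597 in Dnmt3-deficient BMPC. Summed over the 3 rows, globin was at 26.5, 136.9 and 275.7 FPKM in deficient nB replicates 1 to 3, while the balance of α to β stayed within that narrow range.

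In BMPC the carbonic anhydrases stood far above the globins. Car1 was at 2864, 3446 and 4308 FPKM in Dnmt3-sufficient replicates 1 to 3 and at 3185, 1564 and 1342 in Dnmt3-deficient ones, and ranked 15 of 21761 genes by mean FPKM over the 6 BMPC libraries. Car2 was at 2462, 2158 and 3286 FPKM in the sufficient libraries and at 2524, 1423 and 1128 in the deficient ones, and ranked 31. Car1 had 0 reads in all 6 GCB libraries, so its BMPC mean of 2785 FPKM was at least 9678-fold higher than a floor of 3 reads per GCB library. Together the reads of Car1 and Car2 made up 0.369% to 1.13% of all reads in a BMPC library, against at most 0.0111% elsewhere. Car2 differed from Car1 in being read in nB (39.2 to 61.9 FPKM) and GCB (3.89 to 12.2) too.

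The globins were high in BMPC as well. Hba-a2 was at 424, 517 and 1047 FPKM in Dnmt3-sufficient BMPC and at 413, 119 and 44.4 in Dnmt3-deficient BMPC. Hbb-bs was at 729, 578 and 957 FPKM in the sufficient libraries and at 342, 111 and 47.7 in the deficient ones. Hbb-b1 was at 373, 313 and 699 FPKM in the sufficient libraries and at 359.7, 87.8 and 32.9 in the deficient ones. For all 3 genes the highest level was in sufficient replicate 3 and the lowest in deficient replicate 3 among the 6 libraries, and deficient replicate 1 was the highest of the deficient ones.

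Alas2 and Slc4a1, which are made late and abundantly in red cell precursors, were low or absent in BMPC. Alas2 had 0, 0 and 22.3 FPKM in Dnmt3-sufficient replicates 1 to 3 and was at 8.05, 0 and 0 in the deficient ones. Slc4a1 was at 0.50, 0 and 1.21 FPKM in the sufficient libraries and at 0 in the deficient ones, and no library held more than 20 reads of it. Alas2 was thus read in 2 of the 6 BMPC libraries. In GCB it was at 0, 0.661 and 0 FPKM in the sufficient libraries and at 0.545, 0 and 0.172 in the deficient ones, with overlapping groups.

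To compare BMPC with GCB, limma was fitted to log2(FPKM + 1) of the 11522 genes in all 18 libraries, with Benjamini-Hochberg adjustment. A gene was called at an adjusted p of at most 0.05 and a log2 change of at least 1. Averaged over genotypes, 5 of the 6 tested genes rose from GCB to BMPC, against 7.72% of all genes, and none fell, against 33.7%. Car1, with no read outside BMPC, passed the filter only through BMPC, so it had to be higher there, and Slc4a1 was removed by the same filter. The log2 changes were 11.32 ± 0.27 (SE) for Car1 (adjusted p = 3.11e-14), 7.92 ± 0.25 for Car2 (8.46e-13), 7.80 ± 0.58 for Hba-a2 (1.88e-08), 6.42 ± 0.54 for Hbb-bs (7.70e-08) and 4.94 ± 0.72 for Hbb-b1 (3.42e-05). Alas2 had a change of 1.02 ± 0.79 and did not pass (adjusted p = 0.299). The median over all genes was -0.66 on this scale and -0.51 after median of ratios scaling, and the 5 calls held under each alternative tried. Here GCB is from lymph node and BMPC from bone marrow, so cell type, tissue and depth cannot be told apart.

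In Dnmt3-sufficient mice the same 5 genes were called, against 6.67% of all genes called higher, with log2 changes from 7.50 ± 1.02 (Hbb-b1) to 11.77 ± 0.38 (Car1). In Dnmt3-deficient mice Car1 (10.88 ± 0.38), Car2 (7.61 ± 0.36), Hba-a2 (6.94 ± 0.82) and Hbb-bs (4.11 ± 0.76) were called, against 6.14% of all genes. Hbb-b1 had a change of 2.37 ± 1.02 there and missed the threshold by limma (adjusted p = 0.0819), and passed it without Dnmt3-deficient BMPC replicate 3 (3.17, adjusted p = 0.0352). With voom on the read counts Car2 missed the threshold within each genotype (adjusted p = 0.0702 and 0.103) at changes of 8.43 and 7.68.

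Genes of red cell precursors other than the 9 were read from 6 lists: other globins, haem synthesis, haem and iron supply, red cell membrane and blood groups, erythroid regulators, and late erythroid factors. Of their 66 genes, 64 had a row and 56 passed the filter. From GCB to BMPC 24 of the 56 rose, against 7.72% of all genes, 7 fell, against 33.7%, and 25 did not pass. Genes read in BMPC alone could pass the filter only by being high there, which bears on these counts. Their median change was 0.98, against -0.66 over all genes. The membrane and blood group genes led, with 12 of 15 higher and 1 lower, and the regulators followed with 4 of 8 higher and none lower. Haem synthesis had 1 of 8 higher and 1 lower (Alas1, the form used by most cells), haem and iron supply 3 of 10 higher and 1 lower, and the late factors 4 of 14 higher and 3 lower.

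**Figure D3:**
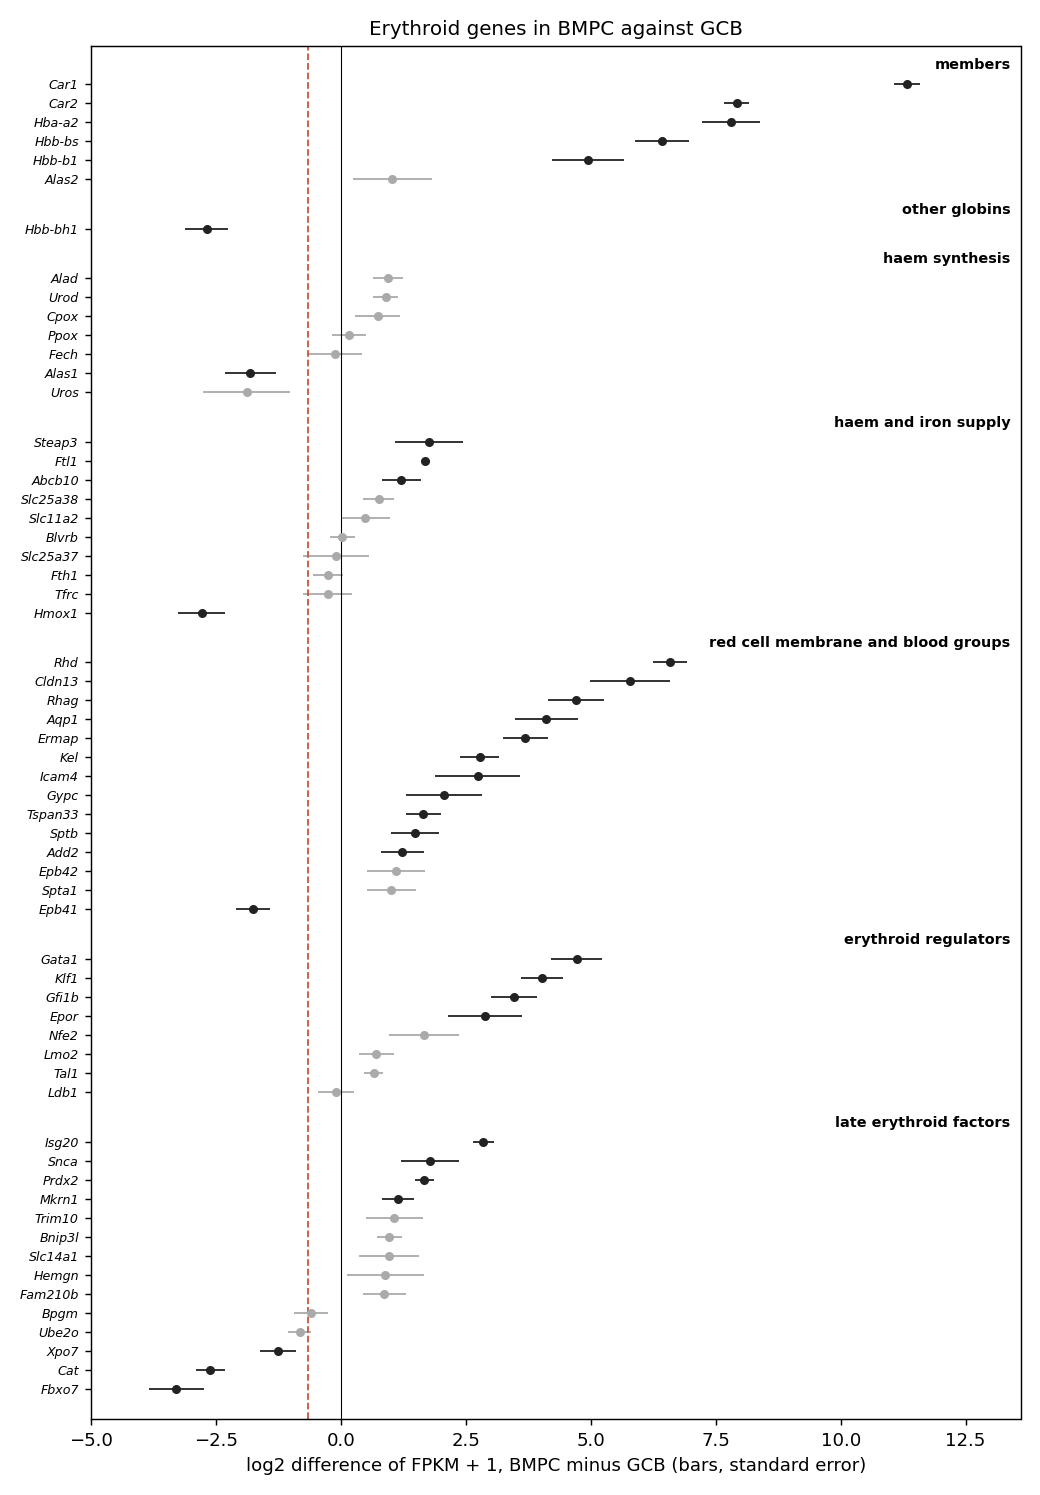
Difference in log2(FPKM + 1) between BMPC and GCB averaged over genotypes, with standard errors, for the 6 tested genes and the tested genes of 6 erythroid lists that are reported here; black points were called by limma and grey ones were not, and the dashed line is the median of all genes (-0.66). Car1, Car2, the adult globins and most membrane and blood group genes lie to the right, and Hbb-bh1 lies to the left.

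The largest changes were in membrane, blood group and regulator genes. Rhd, which encodes the Rh blood group protein, was at 334, 182 and 184 FPKM in Dnmt3-sufficient BMPC and at 92.6, 38.9 and 47.3 in Dnmt3-deficient BMPC, with a log2 change from GCB of 6.58 ± 0.34 (limma adjusted p = 2.18e-10). Gata1 was at 96.2, 8.29 and 127 FPKM in the sufficient libraries and at 27.0, 12.0 and 6.73 in the deficient ones, with 0 reads in every nB and GCB library. Klf1 was at 29.4, 3.09 and 34.7 FPKM in the sufficient libraries and at 16.8, 18.3 and 10.9 in the deficient ones. Cldn13, which encodes a claudin, had a change of 5.78 ± 0.81, Rhag, which encodes a partner of the Rh protein, of 4.71 ± 0.56, Aqp1, the water channel of red cells, of 4.11 ± 0.63, and Ermap, a blood group gene, of 3.69 ± 0.45, all called. Against the floor of 3 reads per GCB library the BMPC mean of Gata1 was at least 245-fold higher.

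Markers of other cells were read in the same BMPC libraries. The 9 neutrophil genes, which summed to 0 FPKM in all 6 nB and 5 of 6 GCB libraries, had a summed level of 79.8 to 549 FPKM in Dnmt3-sufficient and 21.3 to 608 in Dnmt3-deficient BMPC. The neutrophil genes Ltf and Camp were at 0 in 5 of the 6 libraries. Macrophage genes summed to 0.0421 to 45.7 FPKM, with C1qa and C1qc at 0, and platelet and megakaryocyte genes to at most 11.4, with Pf4 and Ppbp at 0. T and NK cell genes summed to 74.4 to 183 FPKM. The sort had a dump channel with stains for Ly6-G, CD90.2, CD11c and CD11b, which mark neutrophils, T cells and other myeloid cells. The study lists no stain for red cell precursors in it. The paper describes the sorted populations as highly pure, with B220 and CD138 plots from before and after the bone marrow sort. The part of other bone marrow cells in these levels was not tested.

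Between genotypes in BMPC the globins were lower in the Dnmt3-deficient libraries by their means, but limma called 0 of the 6 genes, against 1.34% of all genes called higher and 2.65% called lower. The log2 differences (deficient minus sufficient) were -2.59 ± 0.76 for Hbb-bs (adjusted p = 0.0614), -2.23 ± 0.82 for Hba-a2 (0.124), -2.08 ± 1.02 for Hbb-b1 (0.265), -0.89 ± 0.38 for Car1 (0.190), -0.70 ± 0.36 for Car2 (0.289) and -0.45 ± 1.11 for Alas2 (0.932). The FPKM summed over the 6 plasma cell genes was 17008 to 26871 in sufficient and 31160 to 48114 in deficient BMPC, without overlap. For 3.02% of all genes every deficient BMPC library was above every sufficient one. Limma called 0 of these 6 genes, with differences of -2.455 for Irf4, 0.13 for Xbp1 and 0.62 to 1.84 for the others. Of the 7 tested neutrophil genes limma called Lcn2 higher (2.94 ± 0.78, adjusted p = 0.0412) and Elane lower (-3.61 ± 0.93, 0.0374). Lcn2 passed the filter only through Dnmt3-deficient BMPC and Elane only through Dnmt3-sufficient BMPC, so the direction of each call was fixed. The part of these genes in the globin differences was not tested. At an unadjusted p under 0.05, 2342 of the 11522 genes passed in this comparison. For Hba-a2 and Hbb-bs every deficient library was below every sufficient one, as for 7.31% of all genes. Deficient replicate 1 decided the calls: without it Hbb-bs (-3.33, adjusted p = 0.0135), Hba-a2 (-3.06, 0.0292) and Car1 (-1.27, 0.0420) were called. With voom on the read counts 1 gene, Car1, was called (-1.07, adjusted p = 0.0398).

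**Figure D4:**
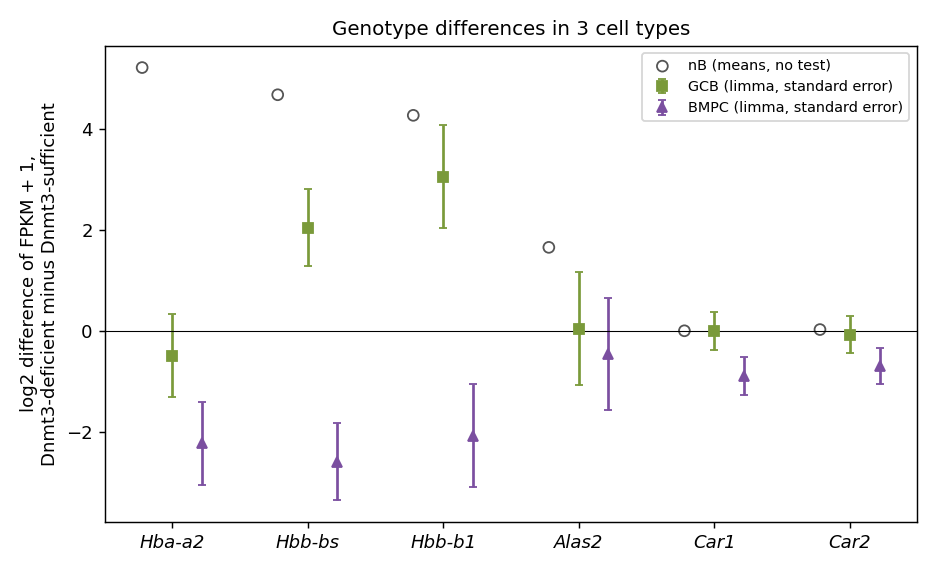
Difference in log2(FPKM + 1) between Dnmt3-deficient and Dnmt3-sufficient libraries for 6 genes in 3 cell types; GCB and BMPC show the limma estimate with its standard error and nB shows the difference of means. The adult globins are above 0 in nB, Hbb-bs and Hbb-b1 are above 0 in GCB, and all 3 are below 0 in BMPC.

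Of the 56 erythroid list genes, 6 were lower in Dnmt3-deficient BMPC, against 2.65% of all genes, and 1 was higher, against 1.34%, with a median of -0.69 against -0.05 over all genes. The lower genes were Kel (-3.60 ± 0.55), a blood group protease gene at 21.2, 24.5 and 22.7 FPKM in the sufficient libraries and at 6.57, 0 and 0 in the deficient ones, Lmo2 (-2.44 ± 0.49), which encodes a partner of GATA1, Rhd (-1.99 ± 0.48), Alad (-1.65 ± 0.42), which encodes the next haem synthesis enzyme after ALAS2, Blvrb (-1.45 ± 0.35) and Prdx2 (-1.09 ± 0.27). The higher gene was Fech (3.30 ± 0.79), which encodes the enzyme that inserts iron into protoporphyrin to make haem. Fech was at 7.23, 0 and 0.33 FPKM in the sufficient libraries and at 23.5, 20.1 and 19.3 in the deficient ones. Kel had 0 reads in GCB. Genes read mainly in 1 BMPC genotype could pass the filter by being high there, which bears on these counts. The counts were 0 lower and 0 higher when only the BMPC libraries were fitted or each library was weighted by its quality. Without Dnmt3-deficient BMPC replicate 1 the count of lower genes was 10. Gata1 (-1.78 ± 0.72) and Rhag (-1.97 ± 0.79) did not pass (limma adjusted p = 0.164 and 0.161).

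Between genotypes in GCB limma called 0 of the 6 genes, and 0.00% of all genes in either direction. At an unadjusted p under 0.05, 124 genes passed, and voom on the read counts also called 0 of the 6 genes. The log2 differences were 3.05 ± 1.02 for Hbb-b1, 2.04 ± 0.76 for Hbb-bs, -0.49 ± 0.82 for Hba-a2, 0.04 ± 1.11 for Alas2 and -0.07 ± 0.36 for Car2, each with an adjusted p of 1, and Car1 was at 0 throughout. For Hbb-bs and Hbb-b1 every deficient library was above every sufficient one, as for 5.58% of all genes. Hbb-bh1 did so as well (3.18 ± 0.61, adjusted p = 0.855). The genotype difference itself was compared between GCB and BMPC, and limma called 0 of the 6 genes, against 0.148% of all genes higher and 0.278% lower. In this test 1086 genes had an unadjusted p under 0.05 and voom called 0 of the 6 genes. The differences of differences were -4.63 ± 1.08 for Hbb-bs (adjusted p = 0.0798), -5.13 ± 1.44 for Hbb-b1 (0.182) and -1.73 ± 1.16 for Hba-a2 (0.679). Without Dnmt3-deficient BMPC replicate 1 Hbb-bs (-5.37, adjusted p = 0.00934) and Hbb-b1 (-6.03, 0.0330) were called.

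Within BMPC the globins and carbonic anhydrases varied together over the libraries of both genotypes. Over the 6 libraries Hba-a2 had a Pearson r of 0.975 (Spearman rho 0.943) with Hbb-bs, of 0.992 (0.829) with Hbb-b1, of 0.982 (0.943) with Car1 and of 0.976 (0.771) with Car2, on the log2(FPKM + 1) scale. Without the 2 libraries farthest from the median of Hba-a2 these r were 0.724, 0.904, 0.951 and 0.806 over 4 libraries. The means of all these genes were lower in the deficient libraries, so each r also holds the difference between genotypes. Among the deficient libraries all these genes fell from replicate 1 to 3. Among the sufficient ones Hba-a2 and Car1 rose from replicate 1 to 3, while Hbb-bs, Hbb-b1 and Car2 were lowest in replicate 2. The spread was unequal, since the ratio of Car1 to Hba-a2 ran from 4.11 to 6.76 in Dnmt3-sufficient BMPC and from 7.72 to 30.2 in Dnmt3-deficient BMPC, while the ratio of Car1 to Car2 stayed between 1.10 and 1.597 over all 6 libraries.

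Car1 had an r of 0.646 (rho 0.600) with Gata1, which was 0.200 without the 2 libraries farthest from the median of Car1. For Hba-a2 with Gata1 the r was 0.705 (rho 0.657), and 0.448 without the 2 libraries farthest from the median of Hba-a2. Sufficient replicate 2 had high Car1 (3446 FPKM) with the lowest Klf1 of the 6 libraries, and deficient replicate 1 had high Rhag (85.7 FPKM) and Cldn13 (157 FPKM). Jchain, which plasma cells make in large amounts, had an r of -0.662 (rho -0.714) with Car1 and of -0.609 (rho -0.829) with Hba-a2. The 6 libraries share depth range and tissue, and all shares of reads in a library sum to the same total, so these values are a description.

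**Figure D5:**
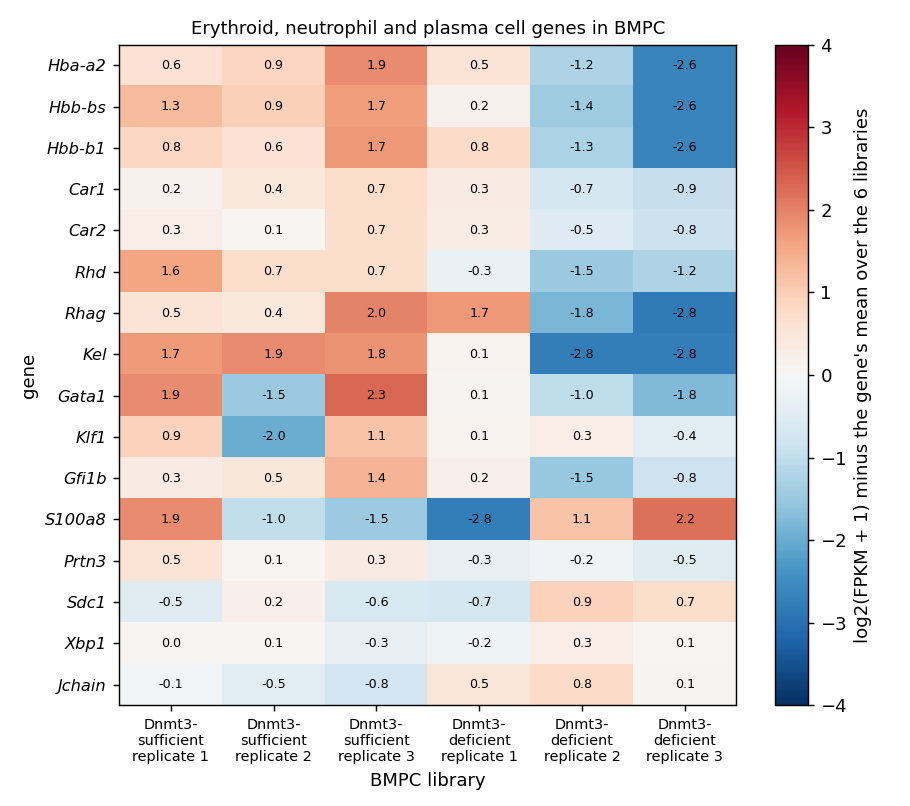
Level of 16 genes in the 6 BMPC libraries as log2(FPKM + 1) minus the gene's mean over the 6. The globins, Car1 and Car2 are highest in Dnmt3-sufficient replicate 3 and lowest in Dnmt3-deficient replicate 3, while S100a8, a neutrophil gene, follows another order.

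By Pearson r with the summed adult globin level over 18 libraries (log2(FPKM + 1)), the genes most alike were Ramp1 (0.878), Ifitm2 (0.866), Glo1 (0.862), Ufm1 (0.840), Gm20594 (0.839), Sep15 (0.831), Mn1 (0.828) and Il13ra1 (0.826). Each of these 8 was higher in every BMPC library than in every nB and GCB library. Ramp1 was at 6.57 to 59.6 FPKM in BMPC and at most 5.57 in nB and 0.205 in GCB, and Ifitm2 at 41.2 to 425 FPKM in BMPC and at most 3.79 elsewhere. The 18 libraries fall apart by cell type, and the correlation over them is a description.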

How the data were processed

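Messenger RNA of 5000 sorted cells per library was amplified with SMART-Seq, and paired 50-base reads were aligned to mm9 with TopHat, which kept 1 place per read, and counted over UCSC known gene exons without a stated strand setting. The authors deposited FPKM per gene and library in 1 table, with 54 columns of their own comparisons (fold changes and p-values between groups), which were not used. The submitters' processing notes name edgeR 3.12.1 and R 3.2.2. FPKM times exon length, divided by its smallest value above 0 in the library, gave whole reads (within 0.01) for 100% of values. Taken as 1 read, that smallest value also gave the library total. This total is the divisor behind the FPKM and not a sum over genes. The amplified reads carry no molecular barcodes, and floors of 3 reads therefore cover only counting error.

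The 11522 of 21761 genes over 1 FPKM in 2 or more libraries were fitted with limma 3.58.1 in R 4.3.3 on log2(FPKM + 1), with 6 group means over all 18 libraries, a mean-variance trend and Benjamini-Hochberg adjustment. This scale understates changes of low genes. A call needed an adjusted p of at most 0.05 and a log2 change of at least 1. The script was tested on simulated data. By the study's methods, libraries of nB and BMPC came from separate mice and GCB libraries from separate pools of mice.

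The named genes are the 9 genes, the erythroid list genes called in a tested comparison (the 8 with the largest change where more were called) and the 8 genes most alike in Pearson r. The members and lists were chosen with earlier results of these data known. Alternatives were fits without a filter or with one of over 3 FPKM in 3 or more libraries, a smaller pseudocount (0.1), scaling by the median of ratios, calls with no minimum change, fits of the compared groups alone, a sex term, quality weights, voom on the recovered reads, a replicate block within GCB and leaving out each library. Promoters came from RefSeq GRCm38.p6 and coding sequences and loci from mm9 with GENCODE vM1. Protein sequences were not used here. Some genes of the lists are counted but not reported by name here.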

Additional observations from a re-analysis of the deposited data

Results flagged for a closer look

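The sign of the difference between genotypes differed between cell types for 2 globin genes, with every library of the Dnmt3-deficient group on 1 side of every Dnmt3-sufficient library in each cell type compared. Hba-a2 differed (deficient minus sufficient, log2(FPKM + 1)) by 5.21 in nB and by -2.23 in BMPC. Hbb-bs differed by 4.67 in nB, by 2.04 in GCB and by -2.59 in BMPC. The difference between nB and BMPC was not tested, since the nB contrast chose the genes and so fixed their sign there. Of all genes that passed the filter, 4.66% had every deficient library above every sufficient one in nB and 5.58% in GCB. In BMPC 7.31% had every deficient library below every sufficient one. The share of genes with opposite signs in 2 cell types was not counted. The difference between GCB and BMPC for Hbb-bs was -4.63 ± 1.08 (SE) and was not called by limma (Benjamini-Hochberg adjusted p = 0.0798). It was called without Dnmt3-deficient BMPC replicate 1 (-5.37, adjusted p = 0.00934).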

How the results depend on the processing

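Of 626 refits of a gene in a comparison, 601 kept direction and side of the threshold, 2 lost a call, 7 gained one and 16 changed sign. The sign changes were of Hba-a2, Alas2 and Car2 in comparisons where they were not called. Leaving out 1 library moved the genotype difference in GCB between -0.79 and 0.10 for Hba-a2, -0.13 and 0.29 for Alas2, and -0.48 and 0.24 for Car2. For Alas2 it moved the genotype difference in BMPC between -1.51 and 1.06 (0.0029 with voom), the change from GCB to BMPC between -0.24 and 2.03 in Dnmt3-sufficient and -0.29 and 1.30 in Dnmt3-deficient mice, and the difference of differences between -1.56 and 1.02. The count of genes called between genotypes in BMPC was 1 with voom and 0 to 3 with 1 library left out, and that for the difference of differences was 0 to 2.

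Of the erythroid list genes, 1 was higher and 6 were lower in Dnmt3-deficient BMPC. The counts were 0 and 3 with no filter, 0 and 0 with only the groups compared or with quality weights, and 0 and 2 with voom. They were 0 to 2 and 3 to 10 with 1 library left out. These list counts under alternatives were added after seeing the data. With a pseudocount of 0.1 the nB differences were 7.71 for Hba-a2, 5.996 for Hbb-bs, 6.57 for Hbb-b1 and 3.15 for Alas2. With 1 nB library left out they ran from 4.51 to 6.12, 4.06 to 5.50 and 3.39 to 5.33 for the 3 globins.

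The GCB titles share the prefixes F2, F3 and M1, and same-prefix libraries are of the same sex. Their correlations of deviations were -8.06e-05, -0.0171 and 0.0257, against -0.06 to 0.0632 for pairs of unlike prefix. Whether same-prefix libraries also shared a preparation cannot be told from these values. With the replicate block within GCB, 0 genes were called between genotypes in GCB and 5 between GCB and BMPC, as without it. The BMPC libraries share no such numbers, and no block was fitted there. Depth limits BMPC most, where up to 4615 tested genes had no read in a library.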

Other observations

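Some erythroid list genes outside the naming rule are given here after their values were seen. Ftl1, which encodes the ferritin light chain, was at 2841 ± 418 FPKM (SD, n = 6) in BMPC and 876 ± 39.3 in GCB, and rose by 1.69 ± 0.09 (SE, log2; limma, Benjamini-Hochberg adjusted p = 2.18e-10). Fbxo7, an F-box gene, had a change of -3.30 ± 0.55 and was called. Hmox1, which encodes haem oxygenase 1, was at 0 reads in all 6 BMPC libraries and at 6.47 ± 3.16 FPKM in GCB. Hbq1b, a theta-like globin gene, was at 26.6 FPKM (27 reads) in Dnmt3-deficient BMPC replicate 2 and at no more than 1 read in any other library.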
